A study of Ovis aries with 12 samples.

Results

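The change between the follicular and the luteal phase was compared between ewes of genotype *FecB* BB and *FecB* ++, as the difference of the phase changes, (MF minus ML) minus (wF minus wL). All 12 of the 12 libraries enter this contrast, because it needs every group. Small-Tailed Han ewes aged 2.5 ± 0.5 years gave the tissue, the isthmus of the oviduct. The BB ewes, of the mutant genotype, form MF (follicular) and ML (luteal). The ++ ewes, of the wild type, form wF and wL likewise, and each of the 4 groups holds 3 ewes. All 12 ewes were synchronized with an intravaginal progesterone device (CIDR, 300 mg progesterone) for 12 days. The follicular ewes were sampled 45 to 48 h after its removal and the luteal ewes on day 9 after removal, so the phases come from different animals. A positive value means that the follicular level, relative to the luteal level, was higher in BB than in ++. Levels are FPKM, fragments counted per kilobase of a transcript, relative to all that mapped, and differences are on the log2(FPKM + 0.1) scale with standard errors.

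*FecB* is a missense allele of *BMPR1B*, a type I receptor for bone morphogenetic proteins (BMPs), and ewes that carry it ovulate more eggs. The isthmus is the narrow, muscular segment of the oviduct that stores sperm and passes the embryo to the uterus. Its epithelium of ciliated and secretory cells is remodelled through the cycle by estradiol from the follicle and progesterone from the corpus luteum. In the follicular phase epithelial cells can enter mitosis, and spindle and kinetochore proteins are the machinery that pulls the copied chromosomes apart. A phase change that differs by genotype can be found in BB or in ++ ewes alone, be larger in one of them, or run in opposite directions.

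Epithelial and muscle markers were present in every library: *EPCAM* was at 70.9 to 482 FPKM, *TPPP3*, a gene of ciliated cells, at 38.1 to 463 and the smooth muscle actin gene *ACTA2* at 141 to 1797. The mixture of cells varied between ewes within groups. ML2, ML3, wF2 and wL2 held more smooth muscle RNA and less RNA of ciliated cells than the other 8 libraries. Averaged over 11 genes of smooth muscle, the log2 level was 7.84 to 8.68 in these 4 libraries and 4.93 to 6.93 in the others. That of 21 genes of ciliated cells was -1.03 to 3.40 against 4.19 to 5.07. The value of -1.03 was that of ML3. There *RSPH1* and *MYB*, also of ciliated cells, were at 2.72 and 0.454 FPKM, although *TPPP3* was at 38.1. In a bulk sample, fewer cells of a type and less RNA per cell cannot be told apart. The fragments behind the values, estimated relative to MF1, were 0.953 to 1.02 in the other MF libraries and 0.669 to 0.774 in ML. In ++ ewes they were 0.753 to 1.15 in wF and 0.766 to 0.946 in wL. By this estimate a low level rests on fewer fragments in ML. The study, however, reports similar mean numbers of clean reads in the 4 groups. In each library 23.8 to 31.1% of transcripts are listed at 0.

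Few features had a phase change that differed between the genotypes past the threshold, an adjusted p under 0.05 with a size of at least 1 on the log2 scale. Of 31290 mRNA transcripts tested 5 were called (0.016%), 4 positive and 1 negative. Of 8676 genes, taken as the sum of their paired transcripts, 1 was called (0.0115%). These sums are partial, since 34.8% of mRNA transcripts were paired with a gene, and most sums made hold 1 transcript. The gene called was *BUB1*, whose sum is the 1 transcript that is also among the 5. With 1 library left out, 0 to 16 mRNA transcripts and 0 to 7 genes were called. None of the 15431 lncRNA transcripts was called by limma (0%), and their smallest adjusted p was 0.423. At an unadjusted p under 0.05 stood 2943 mRNA transcripts (9.41%, with 5.33% positive and 4.08% negative), 1130 genes (13%) and 801 lncRNAs (5.19%). The median difference over all genes was 0.20, and 60.6% of all genes were positive. The genes at an unadjusted p under 0.05 were 722 positive and 408 negative. With quantile normalization they were 411 positive and 618 negative, and with libraries rescaled to equal sums 334 and 668, with medians of 0.02 and 0.01. The share of positive values therefore depends on the scaling.

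*BUB1*, a kinase of the spindle assembly checkpoint that holds back anaphase until all chromosomes are attached, was the only gene called. Its transcript (XM_012173898.2) was at 2.20, 3.42 and 3.03 FPKM in MF1, MF2 and MF3 and is listed at 0 in ML1, ML2 and ML3. In wF it is listed at 0 in 2 ewes and was at 0.0583 in the third, and in wL it is listed at 0 in 2 ewes and was at 0.0328 in 1. The 3 BB follicular ewes were thus above all other 9 ewes, and no other group held the transcript above 0.1 FPKM. The phase change was 4.88 ± 0.36 in BB and 0.08 ± 0.36 in ++, and their difference was 4.79 ± 0.51 (limma, n = 3 ewes per group, adjusted p = 0.0177 over genes and 0.0398 over mRNA transcripts). The size of a difference from groups at 0 depends on the added 0.1, and with 1 added it was 1.93. Without MF1, MF2, ML3 or wL3 the gene was no longer called, and over the 12 fits that left out 1 library its adjusted p was 0.0192 to 0.125 and the difference 4.66 to 5.01. The call was also lost with age as a covariate (adjusted p = 0.0575 in limma), with the smooth muscle score described above as one (0.25) and without ML2, ML3, wF2 and wL2 together (0.139), and over all its alternatives the adjusted p was 0.000630 to 0.25.

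*PARD3*, a polarity protein that helps to place tight junctions and the apical side of epithelial cells, had a transcript (XM_015099548.1) that was nearly missing from the BB luteal ewes. It was at 1.55, 1.55 and 2.26 FPKM in MF and at 0.00870, 0.000807 and 0.000783 in ML. In ++ ewes it was at 2.26, 2.91 and 2.62 in wF and at 2.30, 3.29 and 2.06 in wL. All 9 other ewes were above 1.5 FPKM and the 3 ML ewes under 0.01. The phase change was 4.17 ± 0.34 in BB and 0.05 ± 0.34 in ++, a difference of 4.12 ± 0.49 (limma, n = 3, adjusted p = 0.0398). It was called in 3 of the 12 fits that left out 1 library, without ML2, ML3 or wL2, and the adjusted p over the 12 was 0.0420 to 0.109. A pair of other *PARD3* transcripts went the other way in part of the ML ewes: XM_015099553.1 was at 1.06 and 1.93 FPKM in ML2 and ML3, and XM_015099560.1 at 2.92 in ML1, while both are listed at 0 in all MF ewes. *PARD3* has no gene sum here, so whether the total differed was not tested.

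*LIG4*, the ligase that seals double-strand breaks in non-homologous end joining, had a transcript (XM_012184942.1) found in the ++ luteal ewes alone. It was at 1.93, 3.59 and 1.86 FPKM in wL and is listed at 0 in the 9 other ewes. The phase change was 0.00 ± 0.39 in BB and -4.61 ± 0.39 in ++, a difference of 4.61 ± 0.55 (limma, n = 3, adjusted p = 0.0398). Of the 12 fits that left out 1 library it was called in 1, without wL2, and the adjusted p ran from 0.0381 to 0.115. The sum over 6 *LIG4* transcripts did not follow it: it was 4.96, 8.37 and 7.64 in MF and 1.19, 6.95 and 2.04 in ML, and in ++ ewes 6.42, 7.89 and 6.27 in wF and 7.76, 8.85 and 6.92 in wL. The wL and wF ewes were close in this sum, and the lowest values were in ML1 and ML3. Its difference of 1.56 ± 0.72 did not pass (limma, adjusted p = 0.377).

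*EPB41L1*, a protein of the band 4.1 family that ties membrane proteins to the actin and spectrin skeleton, had a transcript with opposite phase changes. Its transcript XM_015099855.1 was at 0.897, 0.521 and 1.53 FPKM in ML and at 0.715, 1.66 and 0.743 in wF, and is listed at 0 in all 3 MF and all 3 wL ewes. It was thus found in the luteal phase of BB ewes and in the follicular phase of ++ ewes, with no overlap. The phase change was -3.33 ± 0.49 in BB and 3.41 ± 0.49 in ++, a difference of -6.74 ± 0.69 (limma, n = 3, adjusted p = 0.0398). It was called in 6 of the 12 fits that left out 1 library, and not without MF1, MF2, MF3, wF1, wL1 or wL3 (adjusted p 0.0130 to 0.101 over the 12). It was the only 1 of the 31290 transcripts with a level in every ML and wF ewe and 0 in every other, and none had the mirror pattern, a level in MF and wL alone. *EPB41L1* has no gene sum here, so whether the total of the gene differed was not tested.

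The last of the 5, XM_015103725.1, has no gene name in the tables used here and was chosen for naming after its values were seen. It came close to the mirror pattern. It was at 1.08, 0.546 and 0.545 FPKM in MF and at 0.586, 0.834 and 0.567 in wL, against 0.00267, 0.0337 and 0.0527 in ML and 0.00620, 0.0146 and 0.0338 in wF. The 6 high ewes were all above 0.5 FPKM and the 6 low ewes under 0.06. The phase change was 2.62 ± 0.43 in BB and -2.68 ± 0.43 in ++, a difference of 5.30 ± 0.60 (limma, n = 3, adjusted p = 0.0398). It was called without ML2, ML3, wF3 or wL2 and not in the 8 other fits that left out 1 library, with an adjusted p of 0.0420 to 0.109 over the 12. With the smooth muscle score as covariate the 5 differences were 4.86, 4.54, 4.99, -6.22 and 5.72 in the order above, and none was called (adjusted p 0.206 to 0.363 in limma). Over all alternatives, the leave-out fits included, PARD3 was called in 5 of 24, LIG4 in 3 of 23, EPB41L1 in 11 of 23, BUB1's transcript in 4 of 23 and XM_015103725.1 in 6 of 23. These 5 transcripts were all below 4 FPKM, a level at which a part of all transcripts is listed at 0.

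**Figure D1:**
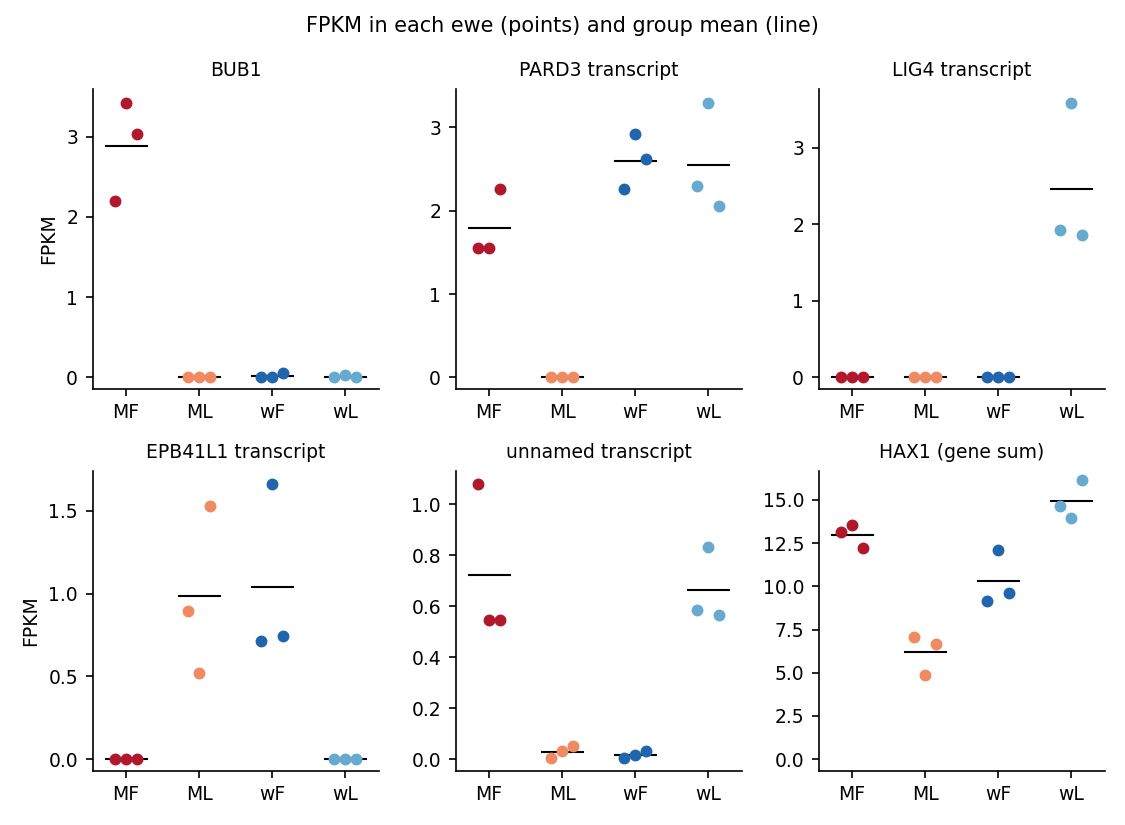
FPKM of the 5 called mRNA transcripts and of the *HAX1* gene sum in the 12 ewes (1 point per ewe, horizontal bars are group means, n = 3 per group, linear axis from 0). *BUB1* is high in MF alone, *PARD3* is near 0 in ML alone, *LIG4* has a level in wL alone, *EPB41L1* in ML and wF, and XM_015103725.1 in MF and wL.

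Next in order of p came transcripts that missed the threshold. FAM217B (XM_012188901.1) was at 1.32, 1.08 and 1.38 FPKM in wL and at no more than 0.0236 in the other 9 ewes, with a difference of 3.75 ± 0.50 (limma, adjusted p = 0.0874). The FAM217B sum was 1.59, 2.56 and 1.74 in wL. It was lower in the other 9 ewes but not near 0 in all, with 1.49 in ML1, 1.45 in ML2 and 1.45 in wF1. A transcript of *BTRC* (XM_012102812.1), the F-box protein that marks β-catenin and other proteins for degradation, was at 1.65, 1.04 and 2.29 FPKM in MF and is listed at 0 elsewhere. Its difference was 4.07 ± 0.55 (limma, adjusted p = 0.0898). The sum of 4 other *BTRC* transcripts, which leaves this one out, was lower in MF (4.65 to 6.54 FPKM) than in 8 of the 9 other ewes (7.01 to 9.83). The exception was wF2 at 6.36. The restricted transcript thus did not go with a higher level of the others, and the total with it included was not tested.

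*CEP152*, a centriole protein needed for centriole duplication, had a transcript (XM_012181622.2) listed at 0 in all 3 ML ewes. It was at 1.32, 1.22 and 1.74 FPKM in MF, 1.38, 0.911 and 0.413 in wF and 1.71, 1.82 and 1.05 in wL (difference 4.71 ± 0.66, limma, adjusted p = 0.0973). The gene sum was 0.0698, 0.365 and 0.573 FPKM in ML and 0.413 to 1.95 in the other ewes, with wF3 below ML3. *WAPL*, which releases cohesin from chromosomes, had a transcript likewise listed at 0 in ML (XM_012105453.2, difference 5.11 ± 0.81, limma, adjusted p = 0.163). It was at 1.01, 3.43 and 2.38 FPKM in MF and at 1.43 to 5.41 in ++ ewes. *WAPL* has no gene sum here, so whether the total differed was not tested.

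*SMOC2*, a matricellular protein that binds calcium, leaned the other way. Its transcript XM_012183283.2 is listed at 0 in all MF ewes and was at 3.0, 2.06 and 11.5 FPKM in ML, 1.99, 2.09 and 0.616 in wF and 0, 0.489 and 0 in wL (difference -8.46 ± 1.20, limma, adjusted p = 0.0973). The main *SMOC2* transcript (XM_012183281.2) was at 9.99, 11.02 and 7.08 FPKM in MF and 27.2, 121 and 385 in ML. In ++ ewes it was at 12.8, 91.1 and 17.3 in wF and 11.8, 35.8 and 7.87 in wL. The highest values of this transcript were in ML2, ML3, wF2 and wL2, the 4 libraries with the highest smooth muscle score, and its difference of -4.41 ± 1.38 was -1.62 with the muscle score as a covariate. A transcript with no gene name, XM_015103147.1, was lower in MF (37.0, 35.4 and 20.5 FPKM) and higher in ML (118, 166 and 205) than in all ++ ewes (63.1 to 88.8). Its difference was -2.53 ± 0.38 (limma, adjusted p = 0.116), and it was the most abundant of these transcripts.

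Transcripts present in 1 group and listed at 0 in the 9 other ewes were rare. There were 5 in MF (0.016% of those tested), 0 in ML, 1 in wF and 5 in wL among mRNAs. Those of MF included *BTRC*, *DEPDC1* (XM_012173026.2, at 0.836, 0.787 and 0.922 FPKM), a gene of mitotic progression, and *THAP5* (XM_012176794.1, at 0.760, 0.832 and 0.950). *DEPDC1* and *THAP5* were named after their values were seen. The *DEPDC1* sum, which rests on other transcripts of the gene, was 1.06, 1.34 and 2.01 FPKM in MF. It was not confined to MF, with 1.39 in ML3, 0.515 in wF1 and 0.338 in wF3. The *THAP5* sum, which rests on another transcript of the gene, was 10.2 to 16.2 FPKM over all ewes with a difference of 0.28 ± 0.28 (0.07 with the muscle score as a covariate), so that the more abundant transcript did not follow the restricted one. The converse, 0 in all 3 ewes of a group and a level in the 9 others, was found for 10 mRNAs and 18 lncRNAs in ML, against 3 to 5 mRNAs and 2 to 9 lncRNAs in the other groups. ML also had the fewest estimated fragments, and the part of depth in these counts was not tested.

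Opposite phase changes were counted from the libraries themselves: the 3 follicular and the 3 luteal ewes did not overlap in either genotype, and the order was reversed. This held for 174 mRNA transcripts (0.556%), 77 genes (0.888%) and 46 lncRNAs (0.298%). The same order in both genotypes was found for 983 (3.14%), 372 (4.29%) and 251 (1.63%). With 3 ewes against 3, some features show such orders without any phase difference. How many of those counted are of this kind was not tested. Higher in MF than ML and lower in wF than wL were 49 genes (0.565%), 108 mRNAs (0.345%) and 18 lncRNAs (0.117%). The converse held for 28 genes (0.323%), 66 mRNAs (0.211%) and 28 lncRNAs (0.181%).

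*HAX1*, a protein that protects mitochondria and cells from apoptosis, had the smallest p of the positive gene sums after *BUB1*. It was at 13.1, 13.5 and 12.2 FPKM in MF and at 7.05, 4.87 and 6.67 in ML, but at 9.14, 12.1 and 9.64 in wF and at 14.6, 13.98 and 16.1 in wL. BB ewes had the higher level in the follicular phase and ++ ewes in the luteal phase, with a difference of 1.61 ± 0.26 (limma, adjusted p = 0.173). *NDRG2*, a gene of cell differentiation that responds to stress, was the gene whose smaller phase change was largest among those with opposite orders in this direction. It was at 73.6, 92.3 and 140.4 FPKM in MF and 53.1, 52.5 and 17.3 in ML, and in ++ ewes 44.4, 28.1 and 68.1 in wF and 98.1, 89.1 and 85.7 in wL. Its phase change was 1.43 ± 0.45 in BB and -1.05 ± 0.45 in ++ (difference 2.48 ± 0.64, limma, adjusted p = 0.375). In the converse direction stood *CDC25B*, the phosphatase that starts entry into mitosis, with -1.39 ± 0.78 in BB and 2.41 ± 0.78 in ++. *MGAT4A*, a glycosyltransferase of the Golgi, had -1.55 ± 0.59 and 1.82 ± 0.59, and *TMTC2* had -1.20 ± 0.44 and 1.20 ± 0.44. These 3 differences were -3.80, -3.37 and -2.40, and none passed (limma, adjusted p = 0.375 for each). That of *TMTC2* was -1.36 with the muscle score as a covariate.

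Among mRNA transcripts with opposite order were *CASP6*, an executioner caspase, *HSPA1L*, a chaperone, *ANAPC16*, a subunit of the anaphase-promoting complex, and *CEP78*, a centriole protein. *CASP6* (XM_012179515.2) was at 0.0149 to 0.123 FPKM in MF and 3.40 to 12.2 in ML, and in ++ ewes 8.75 to 10.7 in wF and 0.0684 to 7.18 in wL. *HSPA1L* (XM_004018937.2) was at 0 to 0.494 in MF and 1.14 to 4.59 in ML, and in ++ ewes 1.54 to 2.92 in wF and 0 to 0.884 in wL. Both were low in MF. *ANAPC16* (XM_004021451.2) was at 2.66 to 8.04 in MF and 0.651 to 2.38 in ML, and in ++ ewes 0.553 to 1.51 in wF and 4.08 to 6.14 in wL. *CEP78* (XM_012122261.2) was at 0.634 to 1.77 in MF and 0 to 0.0743 in ML, and in ++ ewes 0 to 1.16 in wF and 1.58 to 3.08 in wL. The differences were -7.66 ± 1.68, -6.91 ± 1.40, 4.24 ± 0.79 and 5.46 ± 1.18, with adjusted p of 0.263 to 0.449 in limma. Without wL2, *CASP6* was called with -5.90 and an adjusted p of 0.0381 (0.0381 to 0.835 over its alternatives, limma). *MOB1B*, an activator of the Hippo kinases LATS1 and LATS2, had 4.65 ± 1.51 (XM_015096547.1), and a transcript with no gene name, XM_012137782.2, 4.64 ± 1.15.

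**Figure D2:**
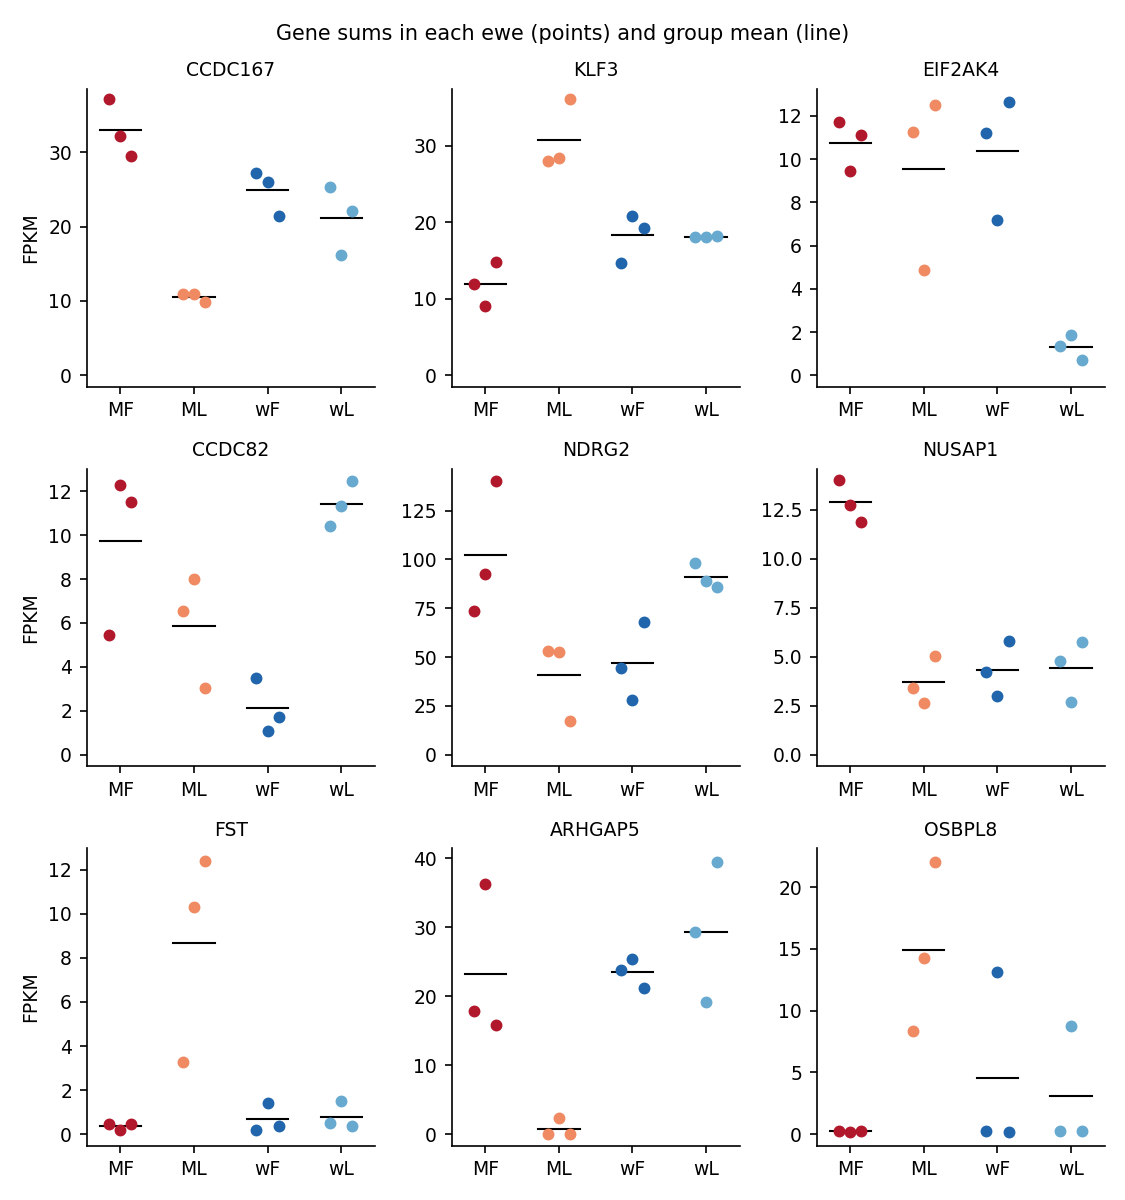
FPKM of 9 gene sums in the 12 ewes (1 point per ewe, horizontal bars are group means, n = 3 per group, each axis linear from 0 with its own range). *NDRG2* shows opposite orders, *EIF2AK4* and *CCDC82* a phase difference in ++ ewes, and *CCDC167*, *KLF3*, *FST*, *NUSAP1*, *ARHGAP5* and *OSBPL8* one in BB ewes.

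The 13 protein-coding genes of the mitochondrial genome, which encode subunits of the respiratory chain and of ATP synthase, stood apart as a group. All 13 had a negative difference and an unadjusted p under 0.05, where 4.7% of all genes were negative at this level, but none was called (smallest adjusted p = 0.173, limma). Their median difference was -2.12, with a median phase change of -1.45 in BB and 0.81 in ++, beside 0.20 for the difference of all genes. For 10 of the 13 the phases did not overlap in either genotype and the order was opposite, against 0.888% of all genes. The list was added after these values were known, and the 13 genes are transcribed as long common precursors, so they are not independent.

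*ND4L*, a subunit of complex I, was at 36.5, 20.2 and 32.0 FPKM in MF and 183, 66.4 and 121 in ML. In ++ ewes it was at 78.0, 95.7 and 69.4 in wF and 40.3, 31.1 and 35.2 in wL. MF and wL were low and ML and wF high, with no overlap (difference -3.17 ± 0.48, limma, adjusted p = 0.173). *ND4* differed by -3.40 ± 0.60, *ND2* by -3.08 ± 0.69, *ND1* by -2.54 ± 0.68, *ND5* by -2.40 ± 0.56 and *ND3* by -1.11 ± 0.43. Cytochrome b of complex III (*CYTB*) differed by -2.46 ± 0.48, and the complex IV subunits *COX1*, *COX2* and *COX3* by -1.20 ± 0.30, -1.21 ± 0.26 and -1.67 ± 0.28. The ATP synthase subunits *ATP6* and *ATP8* differed by -2.12 ± 0.35 and -2.06 ± 0.36. *ND6*, the only 1 of the 13 read from the light strand, had the smallest difference, -0.80 ± 0.35. It was at 54.1 to 83.4 FPKM in MF and 67.1 to 121 in ML, and in ++ ewes 86.1 to 91.0 in wF and 60.0 to 86.1 in wL. The counting is not stated to use strand, so how far reads of the other strand enter the level of *ND6* is not known.

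The 13 genes took 0.372 to 0.450% of all FPKM in MF and 0.691 to 1.26% in ML. In ++ ewes the share was 0.705 to 0.768% in wF and 0.423 to 0.529% in wL. The share was highest in ML1, with a smooth muscle score of 6.33. Of the libraries rich in smooth muscle RNA, ML2, ML3 and wF2 were at 0.691, 0.916 and 0.705% and wL2 at 0.423%. The relation of the share to the muscle score was not tested. With the smooth muscle score in the model as covariate the median difference was -2.27 and all 13 were negative. All 13 were also negative in each of the 23 alternative fits of gene sums, with medians of -2.54 to -1.79 and 11 to 13 at an unadjusted p under 0.05. Without ML2, *ND4L*, *ND4*, *ATP6* and *ATP8* were called (limma, adjusted p = 0.0108, 0.0339, 0.00304 and 0.00472), and over the 12 fits that left out 1 library the highest adjusted p of the 4 was 0.487 to 0.530.

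**Figure D3:**
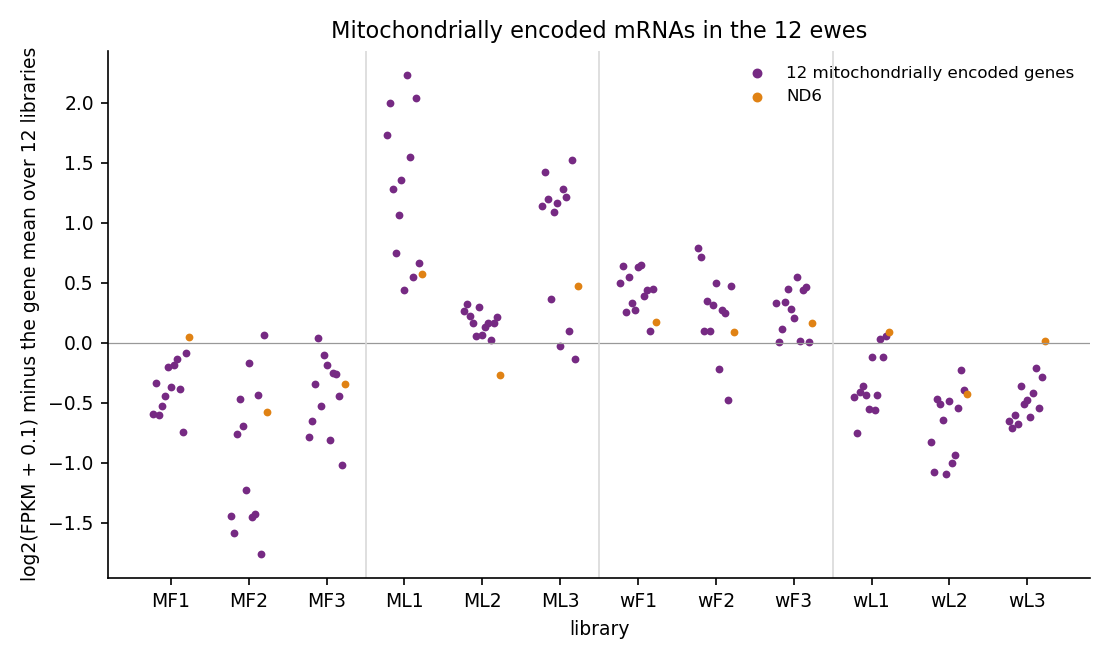
Levels of the 13 mitochondrially encoded mRNAs in the 12 ewes as log2(FPKM + 0.1) minus the mean of the gene over the 12 libraries (1 point per gene and ewe; *ND6* in orange). Most points lie below 0 in MF and wL and above 0 in ML and wF, and ML1 and ML3 hold the highest.

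The spindle and kinetochore genes had positive median phase changes in both genotypes, with the larger one in BB. Of 31 members tested 30 had a positive difference, beside 60.6% of all genes. Of these, 5 were at an unadjusted p under 0.05 (8.32% of all genes were positive at this level), and only *BUB1* was called. Their median phase change was 2.11 in BB and 1.08 in ++, and the median difference was 0.89 beside 0.20 for all genes. *KIF4A*, a kinesin of the central spindle, was at 2.68, 2.81 and 4.16 FPKM in MF and is listed at 0 in all ML and wL ewes, with 0.838, 0 and 0 in wF (difference 3.95 ± 1.05). Without wF1, the only wF ewe with a level, it was called, with 5.02 and an adjusted p of 0.0262 (0.0262 to 0.853 over its alternatives, limma). *NUSAP1*, which bundles spindle microtubules, was at 14.03, 12.7 and 11.9 FPKM in MF, and at 2.64 to 5.79 in the 9 other ewes (difference 1.84 ± 0.49). *MAD2L1*, a partner of BUB1 in the checkpoint, was at 15.5, 15.5 and 15.2 in MF and 4.75, 6.85 and 4.29 in ML, and in ++ ewes 8.31, 12.1 and 10.3 in wF and 7.66, 6.14 and 8.39 in wL.

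Its phase change was thus 1.55 ± 0.22 in BB and 0.46 ± 0.22 in ++ (difference 1.09 ± 0.31). *CENPK*, a kinetochore subunit, was at 1.95 to 3.41 FPKM in MF and 0.554 to 1.69 elsewhere (difference 1.78 ± 0.61). For these 4 genes the adjusted p in limma was 0.375. Other members were higher in the follicular phase in both genotypes, among them *KIF11*, the kinesin that separates the spindle poles, with 2.32 ± 0.59 in BB and 1.59 ± 0.59 in ++, and *TPX2*, an activator of Aurora A, with 1.50 ± 0.29 and 0.68 ± 0.29. *CDK1*, the kinase that drives mitosis, was at 14.9, 18.7 and 18.5 FPKM in MF and 3.47 to 6.75 in ML, and in ++ ewes 3.53 to 10.1 in wF and 1.95 to 10.4 in wL (difference 1.07 ± 0.80). *KIF11* differed by 1.34 and *CDK1* by 1.83 once the muscle score was a covariate. The only negative member was *PTTG1*, securin, with 1.12 ± 0.94 in BB and 2.64 ± 0.94 in ++. Over the 23 alternative fits 25 to 30 members were positive, 3 to 18 of them at an unadjusted p under 0.05.

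The genes whose levels followed *BUB1* most closely over the 12 libraries were *BORA*, an activator of Aurora A, with a Pearson r of 0.909, *KIF4A* with 0.903, *NUSAP1* with 0.889, *TPX2* with 0.882 and *FAM72A* with 0.876. These points share their libraries and the high level in the 3 MF ewes. *ECT2*, a factor of cytokinesis named after its values were seen, had the same form at a low level, with 0.527, 0.627 and 0.271 FPKM in MF, 0.0133 in wL2 and 0 in the other 8 ewes (difference 2.53 ± 0.52, limma, adjusted p = 0.375). *KIF20B*, a kinesin outside the list and also named after its values were seen, went the other way (difference -1.41 ± 0.43, limma, adjusted p = 0.375). Its level was lower in MF than in ML and higher in wF than in wL, without overlap. Genes of DNA replication were close to the median of all genes, with 17 of 24 positive beside 60.6% of all genes. At an unadjusted p under 0.05 stood 0. Their median difference was 0.24, and 0.66 with the muscle score as a covariate. Of 23 DNA repair genes 18 were positive, 4 at an unadjusted p under 0.05 (8.32% of all genes were positive at this level), with a median of 0.33. They included *XPA*, of nucleotide excision repair (1.31 ± 0.43), and *FANCI*, of the Fanconi pathway (1.14 ± 0.38), both with an adjusted p of 0.375 in limma. Each had opposite signs in the genotypes, with 0.78 ± 0.31 in BB and -0.52 ± 0.31 in ++ for *XPA*. The differences were 0.49 for *XPA* and 0.50 for *FANCI* once the muscle score was a covariate.

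**Figure D4:**
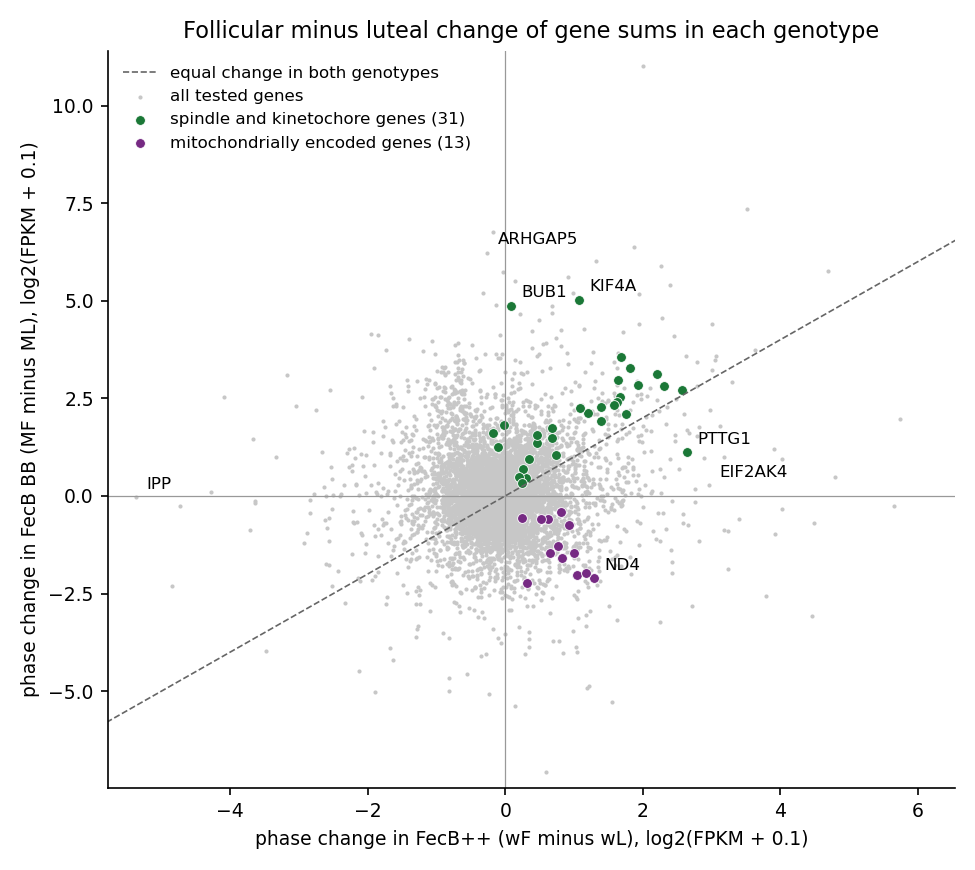
Follicular minus luteal change of 8676 gene sums in BB ewes (vertical) against ++ ewes (horizontal), each on the log2(FPKM + 0.1) scale, with the 31 spindle and kinetochore genes in green, the 13 mitochondrially encoded genes in purple and a dashed line of equal change. The mitochondrial genes lie at negative values in BB and positive values in ++, and the spindle genes mostly above the line.

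Other gene sums of small p included the following. *CCDC167* was at 37.1, 32.2 and 29.5 FPKM in MF and 10.95, 10.93 and 9.83 in ML, and in ++ ewes 27.3, 26.0 and 21.4 in wF and 25.4, 16.1 and 22.1 in wL (difference 1.38 ± 0.26, limma, adjusted p = 0.323). *KLF3*, a repressor of the Krüppel-like family, was at 11.9, 8.99 and 14.8 in MF and 27.99, 28.4 and 36.1 in ML, with 14.8 to 20.8 in all ++ ewes (difference -1.38 ± 0.29, adjusted p = 0.375 in limma). In both genes the BB luteal ewes stood apart from the 9 others. *CRYZ*, a quinone reductase, *CHMP5*, of the ESCRT machinery, and *TSR2*, of ribosome assembly, differed by 1.32 ± 0.28, 1.22 ± 0.27 and 1.22 ± 0.27. *ARHGAP5*, a GTPase-activating protein, was at 15.8 to 36.2 FPKM in MF and 19.2 to 39.5 in ++ ewes, but is listed at 0 in ML1 and ML3 and was at 2.35 in ML2. Its difference of 6.49 ± 1.43 had an adjusted p of 0.375 in limma. Without ML2, the only ML ewe with a level, it was called, with 8.03 and an adjusted p of 0.000525 in limma (0.000525 to 0.618 over the 12 fits that left out 1 library).

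Some genes had their phase difference in ++ ewes. *KCNK2*, a potassium channel that opens on stretch, named after its values were seen, was at 0.614, 0.486 and 0.635 FPKM in wF and at 0 to 0.0369 in the 9 other ewes (difference -2.90 ± 0.47, limma, adjusted p = 0.173). *EIF2AK4*, the kinase GCN2 that senses a lack of amino acids, also named after its values were seen, was at 1.35, 1.87 and 0.688 in wL and at 4.88 to 12.7 in the 9 others (difference -2.68 ± 0.59, adjusted p = 0.375 in limma). *CCDC82* was at 3.51, 1.09 and 1.71 in wF and at 10.4, 11.3 and 12.5 in wL, with 3.06 to 12.3 in BB ewes (difference 3.27 ± 0.68, adjusted p = 0.375 in limma). The ewes set apart were wF for *KCNK2* and wL for *EIF2AK4*.

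Features were also chosen for a change of at least 2 with no overlap in 1 genotype and of less than 0.25 with overlap in the other, so their phase changes are a description. In ++ ewes *IPP*, a kelch protein, is listed at 0 in wF and was at 4.21, 4.43 and 3.52 FPKM in wL. In BB it was at 0 to 3.24 in MF and 0 to 2.72 in ML (difference 5.34 ± 2.02). *SHBG*, which binds sex steroids, was at 0.797, 0.0811 and 0.0419 in wF and 0.995, 1.21 and 0.969 in wL (2.10 ± 1.10). *AKAP8L* and *APEX2*, of base excision repair, differed by 2.85 ± 1.67 and 2.73 ± 2.21. Higher in wF were *VCAN*, the matrix proteoglycan versican, at 3.08, 13.8 and 5.89 against 0.854, 1.77 and 1.23 in wL, and *RXFP1*, the relaxin receptor, at 2.09, 8.53 and 4.38 against 0.688, 0.959 and 1.11. In BB ewes both overlapped between the phases, with 1.44 to 4.82 in MF and 0.826 to 7.996 in ML for *VCAN*. The difference of *VCAN* went from -2.19 to 0.059 with the muscle score as a covariate and that of *RXFP1* from -1.998 to -0.89, and wF2, rich in muscle RNA, held the highest value of both. *IPP*, *AKAP8L* and *APEX2* were then at 3.16, 1.04 and 5.52.

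In BB ewes the same rule gave *KATNAL1*, a microtubule-severing protein, at 0.0807 to 0.129 FPKM in MF and 4.36 to 10.04 in ML, and *OSBPL8*, a lipid transfer protein, at 0.187 to 0.275 and 8.33 to 22.1. The ++ ewes were split for *OSBPL8*: wF2 and wL2 were at 13.1 and 8.75 and the other 4 at 0.218 to 0.269. *METTL8*, an RNA methyltransferase of mitochondria, was at 0.00639 to 0.260 in MF and 2.14 to 2.65 in ML (difference -3.70 ± 1.59). *FABP7*, a fatty acid-binding protein, and *ADRA2A*, an adrenergic receptor, had phase changes in BB of -3.63 ± 1.22 and -3.40 ± 1.11, with ML3 at 9.67 and 64.1 FPKM. The differences of *FABP7* and *ADRA2A* went from -3.53 and -3.22 to -0.12 and -0.16 with the muscle score as a covariate, and that of *OSBPL8* from -5.52 to -1.36.

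Higher in MF were *PLEKHG7*, *SERPINF2*, which encodes the plasmin inhibitor, *AGR3*, of ciliated cells, and *S100A1*, a calcium-binding protein. All of these were low in ML2, ML3, wF2 and wL2: *S100A1* was at 0 to 0.671 FPKM in these 4 libraries and at 78.5 to 247 in the other 8. With the muscle score as a covariate the 4 differences changed sign, for *S100A1* from 6.93 ± 4.87 to -3.85. None of the genes chosen by this rule other than *BUB1* had an adjusted p under 0.375 in limma.

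The markers of cell types moved with the contrast. All 21 genes of ciliated cells tested were positive (median 3.07, 1 at an unadjusted p under 0.05) and all 11 of smooth muscle negative (median -2.78, 6 at an unadjusted p under 0.05), as were all 9 of fibroblasts (median -1.03, 1) and 6 of 7 of endothelium (median -1.05, with 1 positive at this level). The mean smooth muscle score was 5.78 ± 0.80 in MF and 7.62 ± 1.19 in ML, and in ++ ewes 7.25 ± 1.06 in wF and 6.34 ± 1.38 in wL (SD, n = 3). The mean score of ciliated cells was 4.66 ± 0.41, 2.29 ± 2.998, 3.81 ± 0.86 and 4.50 ± 0.95. Of the 11 genes listed for secretory epithelium 3 were tested, *EPCAM*, *KRT8* and *CLDN3*. *OVGP1* and *PAX8* were not, so the list does not tell secretory cells from other epithelium. All 3 were positive (median 1.15), as were 11 of 13 of leukocytes (0.44) and 1 gene of mesothelium (2.46), beside 60.6% of all genes. The 1 gene of red blood cells was negative (-0.29). With the muscle score as a covariate the median of ciliated cells was 0.02, and that of smooth muscle, whose genes make up the score, 0.003. The mesothelium gene was then at -0.72 and the red blood cell gene at 0.10, both of the other sign. The medians of fibroblasts, endothelium and the 3 genes listed for secretory epithelium were then 0.23, 0.09 and -0.12. Where this covariate moved a difference given here by over 1.5 times, the moved value stands beside it.

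In the pathway of the mutated receptor no gene was called. *BMPR1B* itself was at 19.5, 17.0 and 14.2 FPKM in MF and 18.4, 6.40 and 3.59 in ML, and in ++ ewes 22.7, 6.86 and 17.7 in wF and 28.1, 10.1 and 23.1 in wL, and its lowest values were in ML2, ML3, wF2 and wL2. The difference was 1.56 ± 0.88 (limma, adjusted p = 0.405) and -0.33 with the muscle score as a covariate. The allele is a missense change, so the level does not check the genotype. Of 30 genes of the BMP and activin pathway tested 22 were negative and 8 positive, with a median of -0.24, which was 0.13 with the muscle score as a covariate. The 3 at an unadjusted p under 0.05 were all negative. *FST*, follistatin, which binds and blocks activins and some BMPs, was at 0.469, 0.172 and 0.465 FPKM in MF and 3.27, 10.3 and 12.4 in ML, with 0.194 to 1.49 in all ++ ewes. The 3 ML ewes were above all 9 others (difference -3.75 ± 1.05). *BMPR2*, the type II receptor, was at 12.2 to 17.1 in MF, 21.3 to 30.0 in ML and 12.7 to 22.2 in ++ ewes (-0.94 ± 0.32), and *TGFB1* differed by -2.54 ± 0.99. All 3 had an adjusted p of 0.375 in limma. They were -1.47, -0.37 and -0.84 once the muscle score was a covariate.

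Steroid receptors and their cofactors held 6 negative and 4 positive of 10, with a median of -0.73 and 3 at an unadjusted p under 0.05. *NR3C1*, the glucocorticoid receptor, was at 5.19 to 6.81 FPKM in MF, 9.60, 12.1 and 26.8 in ML and 6.17 to 8.83 in ++ ewes (difference -1.21 ± 0.47). *PGRMC2*, a membrane-bound partner of progesterone signalling, was at 13.99 to 20.5 in MF, 26.7 to 34.0 in ML and 17.5 to 24.4 in ++ ewes (-0.90 ± 0.26). For both, the 3 ML ewes were above all 9 others. *ESR2*, estrogen receptor beta, was at no more than 0.916 FPKM in any ewe (-2.59 ± 1.07). These 3 differences were -0.68, -0.49 and -1.31 and the median of the list -0.42 once the muscle score was a covariate. The Hippo pathway had 11 negative of 14 (median -0.27, 1 at an unadjusted p under 0.05), with -0.89 ± 0.40 for *YAP1* and -0.82 ± 0.40 for *WWTR1*, its transcriptional coactivators. With the muscle score as a covariate these were -0.094 and -0.018, and the median of the pathway was -0.056, with 6 positive and 8 negative. Contraction signalling had 13 negative of 20 (median -0.51, 1). Tight junctions had 10 positive of 14, beside 60.6% of all genes (median 0.79, 0 of them, and 1 negative). Immediate early and heat shock genes had 9 negative of 15 (median -0.22, 1). The medians of these 3 lists were 0.45, -0.18 and 0.50 with that covariate, each of the other sign.

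**Figure D5:**
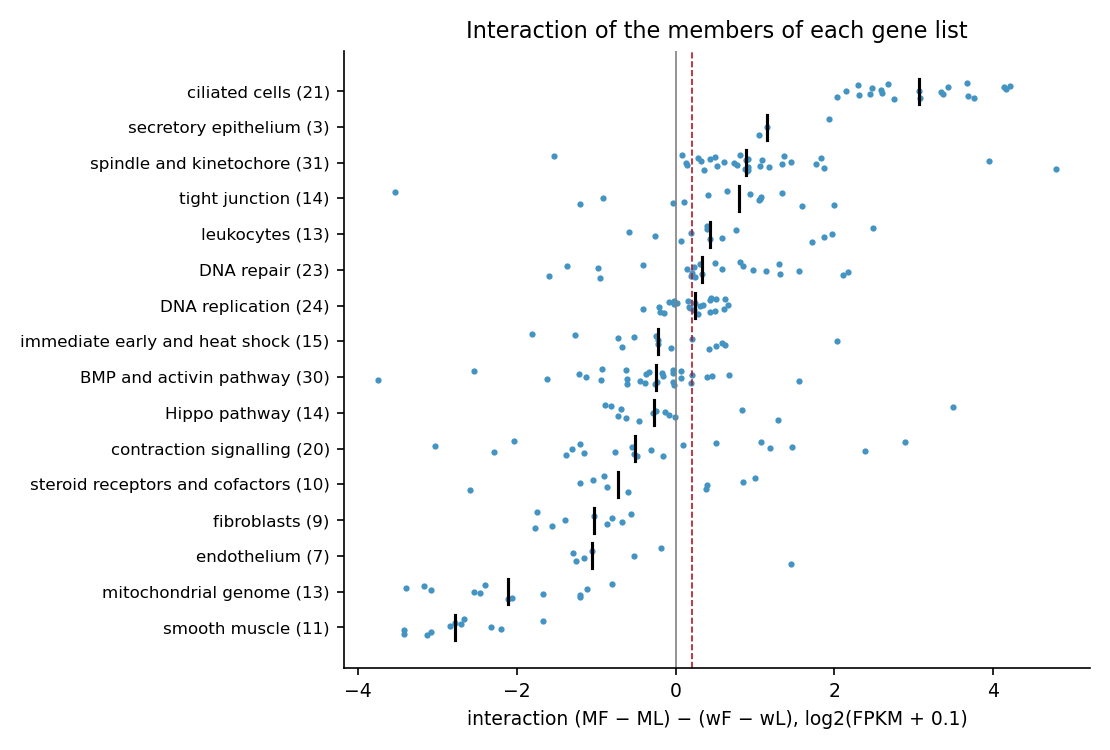
Difference of the phase changes, (MF minus ML) minus (wF minus wL), on the log2(FPKM + 0.1) scale for every tested gene of the 16 lists with at least 3 tested genes (1 point per gene, bars are medians, the dashed line is the median of all 8676 genes, 0.20). The mitochondrial genome, smooth muscle and fibroblasts lie wholly below 0. Ciliated cells lie wholly above, as do *EPCAM*, *KRT8* and *CLDN3*, the genes tested from the secretory epithelium list.

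Some genes were listed because the study discusses them, and their larger differences were in single transcripts. The gene *EML4*, of a microtubule protein, had a transcript (XM_012172873.2) at 1.35, 1.37 and 1.60 FPKM in MF, listed at 0 in all ML and wF ewes and at 0, 0.868 and 1.61 in wL (difference 6.40 ± 1.21, limma, adjusted p = 0.280). Without wL1, the wL ewe listed at 0, it was called, with 7.63 and an adjusted p of 0.0114 (0.0114 to 0.897 over its alternatives, limma). The *EML4* sum was 2.78 to 3.67 in MF, 4.51 to 5.68 in ML and 3.83 to 5.90 in ++ ewes, with a difference of -0.84 ± 0.32 in the other direction. *C2CD5*, of glucose transporter traffic, had a transcript (XM_012175211.2) at 10.6 and 15.2 FPKM in MF1 and MF2, 14.5 and 12.1 in wL1 and wL3 and 0 in the 8 other ewes. Its difference went from 9.37 ± 2.95 to 4.88 with the muscle score as a covariate. The *C2CD5* sum differed by -0.54 ± 0.39. *VIRMA*, of the RNA m6A methyltransferase complex, had a transcript (XM_004011833.3) at 54.6 in ML1, 35.6 in wF2, 1.33 in ML3 and at most 0.226 in the 9 others, so that its difference of -6.86 ± 3.22 rests on single ewes.

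*EEF1D*, of the elongation factor that loads tRNA, had transcripts found mainly in different genotypes. XM_015097558.1 was at 139, 189 and 343 FPKM in MF and 244 in ML3 and at no more than 0.0290 in the 8 other ewes. XM_015097560.1 was at 243, 266 and 226 in wF and 312 in wL1, at 2.25 in MF3 and at 0 in the 7 others. The first was thus found in BB ewes alone and the second nearly in ++ ewes alone. Their differences were 7.09 ± 3.33 and -5.87 ± 3.66 (limma, adjusted p = 0.525 and 0.569). Without ML3, the ML ewe at 244 FPKM, the first was called, with 10.84 and an adjusted p of 0.000537 (limma, 0.000537 to 0.756 over the 12 fits that left out 1 library).

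LncRNAs had the same forms but none passed. LNC_008347 was at 2.13, 2.12 and 1.99 FPKM in MF and 0.706, 0.0757 and 0.361 in ML, and in ++ ewes 1.37, 0.419 and 0.328 in wF and 5.65, 1.50 and 2.50 in wL, an opposite order without overlap (difference 4.50 ± 0.87, limma, adjusted p = 0.423). LNC_015281 was at 0.735 to 1.59 in MF and 0 to 0.101 in ML, and in ++ ewes 0.192 to 0.713 in wF and 0.558 to 1.38 in wL (4.19 ± 0.83, adjusted p = 0.423 in limma). LNC_019349 was at 0.480 to 0.810 in MF and 4.08 to 7.27 in ML, with 0.658 to 3.78 in ++ ewes (-3.39 ± 0.76). The ML ewes were thus the low ones for LNC_015281 and the high ones for LNC_019349.

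LNC_000289 is listed at 0 in all wL ewes and was at 0.237 to 1.31 in the 9 others (difference -3.15 ± 0.75). LNC_019740 (-3.86 ± 0.98), LNC_009407 (-4.84 ± 1.20), LNC_019143 (-7.64 ± 1.85), LNC_015620 (5.97 ± 1.40), LNC_009411 (5.23 ± 1.31) and LNC_012551 (3.84 ± 0.90) followed, each with an adjusted p of 0.632 in limma. Without ML3, which is listed at 0, LNC_019143 was called with -9.77 and an adjusted p of 0.0185 (limma, 0.0185 to 1.0 over the 12 fits that left out 1 library). Of the lncRNAs that the study names, LNC_006270 was at 2.23, 0.950 and 0 in MF and 2.16, 0 and 0.963 in wL and is listed at 0 in all ML and wF ewes (5.28 ± 1.47, adjusted p = 0.726 in limma). With the muscle score as a covariate the differences were 2.97 for LNC_006270, 3.50 for LNC_015620, -1.92 for LNC_019349, 2.74 for LNC_009411 and -2.59 for LNC_009407. LNC_018420, LNC_016630 and LNC_013441 were above 0 in 2 ewes each.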

How the data were processed

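RNA of the oviduct isthmus was sequenced as paired reads from 12 ewes, 3 in each of 4 groups. Per the study's methods, the libraries were prepared after poly-A enrichment and rRNA removal, reads were cleaned with fastp and aligned to Oar_v3.1 with HISAT2, and transcripts were assembled with StringTie and their levels given as FPKM. Versions and the use of strand are not given in the sources used here. The authors deposited FPKM values per transcript, so the number of fragments behind each value is not given. Mean clean reads, which the study reports, were similar in the 4 groups. Relative depth was estimated from the most common ratio of values under 0.05 FPKM to MF1, which 2.45 to 4.19% of such transcripts shared.

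The table held 43674 mRNA transcripts (1363 of them with accessions of non-coding RNA) and 19969 lncRNAs. By accession, 15202 transcripts were paired with 10771 genes and summed, 67.6% of the mean mRNA FPKM. Of these sums 8178 hold 1 transcript. Features with a mean of at least 0.1 FPKM were tested on log2(FPKM + 0.1) with limma 3.58.1 in R 4.3.3 (group means of the 12 libraries, intensity trend, Benjamini-Hochberg adjustment within mRNAs, lncRNAs and genes). A fold on this scale understates the change of low features. A call needed an adjusted p under 0.05 and a size of at least 1. Tables and plots were made with Python 3.11.15, pandas 2.3.3, numpy 2.4.6 and matplotlib 3.10.9.

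Named features were those of largest difference among the called, filled up by smallest p, those with opposite orders, those confined to 1 genotype, the genes and lncRNAs that the study discusses, and the 3 of smallest p in each list, with a level of at least 1 FPKM in the highest group for the first 3 kinds. The gene lists and tests were chosen with earlier results of these data known. The mitochondrial list, and other features said to be named after their values were seen, came later. Some features that this rule gives are not reported here. Up to 24 alternatives were run per feature. Ewes were separate animals. Coordinates and sequences are not used here, since the reference tables are of another build.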

Additional observations from a re-analysis of the deposited data

Results flagged for a closer look

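The phase changes of the genotypes differed, by the interaction test in limma, for 1 gene and 5 mRNA transcripts. The *BUB1* gene sum is its transcript XM_012173898.2 alone, so both calls rest on the same values. The difference was 4.79 for both and rests on the MF ewes, where all 3 were above 2 FPKM. It was 4.12 for the *PARD3* transcript XM_015099548.1, with the 3 ML ewes near 0, and 4.61 for the *LIG4* transcript XM_012184942.1, with a level in the 3 wL ewes alone. It was -6.74 for the *EPB41L1* transcript XM_015099855.1 and 5.30 for XM_015103725.1, both with opposite phase changes in the genotypes.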

How the results depend on the processing

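The counts of calls depended on the processing. Of mRNA transcripts 5 were called, against 0 with 1 added before the log, a filter at 1 FPKM, quantile normalization, the replicate block, age or the smooth muscle score as a covariate, or mRNAs and lncRNAs in 1 fit. There were 1 with equal FPKM sums or robust empirical Bayes, 8 with array weights, 22 without a filter and 82 without ML2, ML3, wF2 and wL2, of which 1 was shared. The ML group then holds 1 library, assumed to vary like the others. Leaving out 1 library gave 0 to 16. Of genes 1 was called, against 0 with a filter at 1 FPKM, the replicate block, age or the smooth muscle score, 2 with array weights, 3 without a filter and 15 without the 4 libraries, none of them shared. Leaving out 1 library gave 0 to 7, the most without ML2. No lncRNA was called other than 2 without ML3, so the range was 0 to 2. At an unadjusted p under 0.05, the mRNAs were 1632 with the smooth muscle score, 5413 with array weights and 1791 to 4493 with 1 library left out, the genes 446, 2845 and 578 to 1814, and the lncRNAs 1700 with array weights, 41 with a filter at 1 FPKM and 533 to 1303. The sign changed for *PTTG1* without the 4 libraries (0.072) and, with the smooth muscle score, for *BMPR1B* (-0.33), *VCAN* (0.059), *PLEKHG7* (-1.59), *SERPINF2* (-2.11), *AGR3* (-2.34) and *S100A1* (-3.85). With 1 added before the log the called differences were smaller, 1.43 for XM_015099548.1 and XM_015103725.1, 1.75 for XM_012184942.1 and -1.95 for XM_015099855.1. The cause of the other changes was not tested. Libraries of different groups with the same replicate number had a median correlation of 0.05 (-0.25 to 0.40). For those with other numbers it was -0.06 (-0.51 to 0.36). Whether libraries of a number share a batch was not tested. The replicate block gave 3194 mRNAs, 830 lncRNAs and 1279 genes at an unadjusted p under 0.05. Low levels rest on few fragments, by the estimate from low values most of all in ML.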

Other observations

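Among the genes whose levels followed *HAX1* most closely over the 12 libraries were *MTG1*, a GTPase of mitochondrial ribosome assembly (Pearson r of 0.914), *SLC39A3* (0.902), *POLR1C* (0.887) and *FUBP1* (0.880).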
